A study of Sus scrofa with 96 samples.

Results

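The transcript ENSSSCT00000018798.5 was followed in the knees of Yucatan minipigs, through synovium and articular cartilage. It is 1 of the 46295 transcripts quantified in every library, and it was selected on its measured level in synovium, which was higher in operated than in CON knees. The difference between operated and CON synovium is therefore given as a description, with no test. The same holds for the difference between the tissues and for the interaction, since both contain those synovium values. The files give the transcript by its Ensembl identifier and its length of 2932 bases, and they pair it with no gene. Its gene, position, sequence and pathway were not analysed here.

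All operated knees came from adolescent minipigs whose anterior cruciate ligament (ACL) had been transected on one side. In ACLT knees nothing further was done, in RECON knees the ligament was reconstructed, and in REPAIR knees it was repaired with an extracellular matrix scaffold. CON knees were the unoperated opposite knees of 12 of these operated animals, 4 from each surgical group, so CON joints belonged to animals that had themselves undergone surgery. Tissue was collected 52 weeks after surgery, cartilage from the medial femoral condyle and synovium from beside the medial meniscus. Both tissues of a knee were sequenced, giving 94 libraries from 47 knees, with 12 CON, 11 ACLT, 12 RECON and 12 REPAIR knees. Knee ACLT 12 is not in the study's list of knees and was left out, and its values are given separately.

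Articular cartilage is a tissue without blood vessels in which chondrocytes keep up a matrix of collagen and proteoglycan. Synovium is the vascular lining of the joint, made of fibroblasts and macrophages over connective tissue, and it supplies synovial fluid to the cartilage. Loss of the ACL makes the knee unstable and is a known cause of posttraumatic osteoarthritis, in which synovium often becomes inflamed and fibrotic. Each sample was bulk tissue, so a change in the number of cells of one type and a change in RNA per cell cannot be told apart. The tissue labels were not checked against marker genes, since the identifiers carry no gene names.

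Libraries held between 7483049 and 21937198 estimated counts, with a median of 14652264. The transcript itself had between 127 and 1740 estimated counts, with a median of 658, so counting error was small beside the spread between animals. The estimate was not a whole number in any library (tolerance 1e-06), because Salmon, the program that assigned the reads, divides a read among the transcripts it fits. Levels are given as CPM, the count relative to the library total, scaled by TMM, a method that corrects the library total for differences in composition, and as mean ± SD. The biological coefficient of variation fitted by edgeR was 25.4% for this transcript, against 34.4% on the trend for transcripts of its abundance and a median of 78.3% over the 40873 transcripts tested.

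The transcript was lowest in CON synovium, at 15.4 ± 6.45 CPM (n = 12). REPAIR synovium held 30.3 ± 7.01 CPM (n = 12), ACLT synovium 33.8 ± 9.50 CPM (n = 11) and RECON synovium 39.4 ± 8.16 CPM (n = 12). The group means of operated synovium were thus 1.97, 2.20 and 2.56 times the CON mean. Cartilage stood above every synovium group with group means close to each other. ACLT cartilage held 61.8 ± 12.5 CPM (n = 11), REPAIR cartilage 62.5 ± 9.71 CPM (n = 12), RECON cartilage 65.8 ± 12.5 CPM (n = 12) and CON cartilage 69.3 ± 20.3 CPM (n = 12). In the order of the 8 means, the step from RECON synovium to ACLT cartilage was bridged by a single synovium library, RECON 5, which lay above 4 of the 11 ACLT cartilage libraries.

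**Figure D1:**
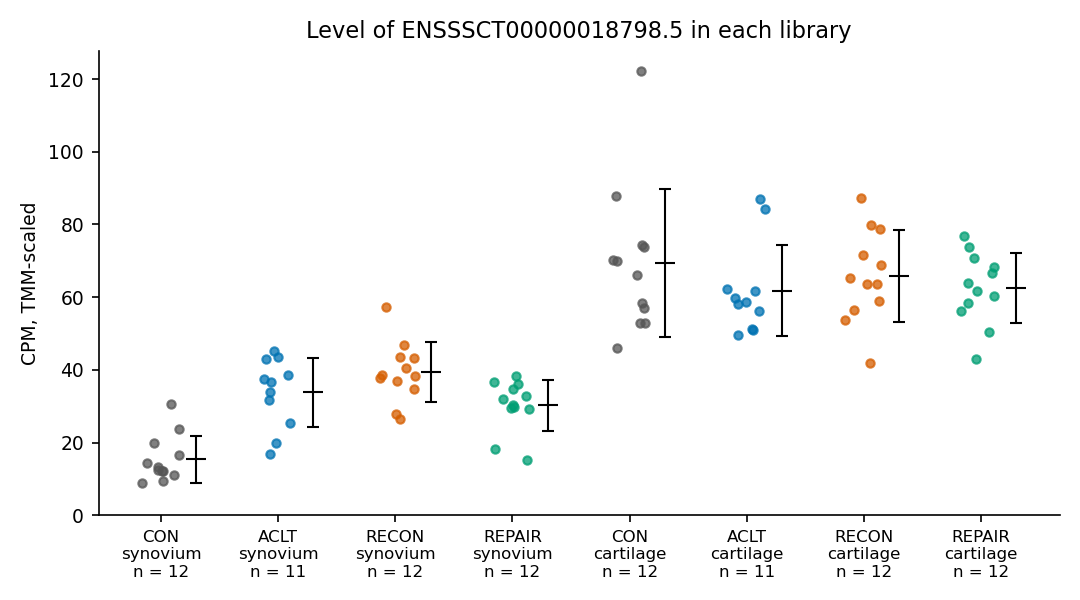
Level of ENSSSCT00000018798.5 in each library, in TMM-scaled CPM, by tissue and treatment. Each point is 1 library, and the bar beside the points is the mean ± SD. CON synovium lies lowest at 15.4 CPM on average, with the CON 11 library at 30.7 CPM among the operated libraries, and the 4 cartilage groups overlap widely.

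Single CON synovium libraries ran from 8.77 to 30.7 CPM, with a median of 12.9 CPM. The upper end was set by CON 11 at 30.7 CPM, followed by CON 4 at 23.7 CPM and CON 5 at 19.8 CPM. ACLT synovium ran from 16.96 CPM in ACLT 10 to 45.2 CPM in ACLT 6, with a median of 36.6 CPM. RECON synovium ran from 26.6 to 57.2 CPM, with a median of 38.6 CPM, and its highest library was RECON 5. In REPAIR synovium the range was 15.1 to 38.2 CPM and the median 31.1 CPM, with REPAIR 7 at 15.1 CPM and REPAIR 5 at 18.4 CPM well under the other 10 libraries. CON synovium had the widest relative spread, a coefficient of variation of 41.9% against 20.7% to 28.1% in the 3 operated groups.

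No operated group was fully separated from CON in synovium, as 0.0196% of transcripts were in ACLT, 0.071% in RECON and 0% in REPAIR. Of the ACLT libraries, 8 of 11 lay above the highest CON library, and 0.617% of the 40873 transcripts had at least that many. For RECON it was 10 of 12, which 0.663% of transcripts reached. For REPAIR it was 6 of 12, which 2.72% of transcripts reached. In the other direction, 3 CON libraries were above the lowest ACLT library, 1 was above the lowest RECON library and 4 were above the lowest REPAIR library. Each of the 35 operated libraries was above the CON median, a description for which no share of all transcripts is given. CON 11 alone set the upper limit of the CON group. Without it, which was tried after the values were seen, 9 of 11 ACLT, 12 of 12 RECON and 10 of 12 REPAIR libraries lay above the highest CON library, and RECON no longer overlapped with CON. Without CON 11, 1.21%, 0.497% and 0.741% of transcripts had at least as many libraries above. With each transcript's own highest CON library left out instead, the shares were 1.61%, 0.565% and 0.959%.

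The fitted differences from CON in synovium were 1.14 on the log2 scale for ACLT (SE 0.16), 1.36 for RECON (SE 0.15) and 0.98 for REPAIR (SE 0.15). As folds these were 2.20 (95% interval 1.78 to 2.72), 2.56 (2.08 to 3.15) and 1.97 (1.60 to 2.42). At an adjusted p under 0.05 (edgeR quasi-likelihood, Benjamini-Hochberg), 4.94%, 8.27% and 4.38% of all transcripts were higher than CON in these 3 comparisons. The 3 comparisons share the 12 CON libraries. With the RNA integrity number of the study's sample list as a covariate the differences were 1.07, 1.28 and 0.97. Around the group means the synovium level followed RNA integrity only weakly, with Pearson's r of -0.177 over 47 libraries (permutation p = 0.253, adjusted p = 0.316) and Spearman's rho of -0.138 (permutation p = 0.366, adjusted p = 0.457). The paper reports lower RNA integrity and a lower share of uniquely mapped reads in pooled operated synovium than in CON synovium. Deviations from the group means leave out such a difference between groups.

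The scaling was larger in synovium of CON knees, with a mean TMM factor of 1.27 against 1.12 to 1.16 in operated synovium. Without TMM scaling, CON synovium held 19.2 ± 6.78 CPM, and the ACLT, RECON and REPAIR means were 2.00, 2.30 and 1.796 times that. On the deposited TPM scale, which also divides by effective length, CON synovium held 12.6 ± 4.19 TPM and the same ratios were 2.00, 2.34 and 1.79. The effective length that Salmon used for the transcript averaged 3329 bases in CON synovium and 3327 to 3370 bases in operated synovium. In cartilage it averaged 3109 to 3150 bases. In every library used it was 2974 bases or more, above the transcript's own length of 2932 bases, and the cause was not tested. Ranked by TPM within a library, the transcript had a median rank of 11432 in CON synovium, 5847 in REPAIR, 4768 in ACLT and 4456 in RECON synovium, and between 2328 and 2557 in the cartilage groups.

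Both ACLT 12 libraries can be set beside these on the scales that need no refit. The ACLT 12 synovium library held 20.4 CPM without TMM scaling and 12.2 TPM. On both scales it lay below all 11 ACLT synovium libraries used, whose lowest values were 20.8 CPM and 15.3 TPM, and inside the CON range. With it, the ACLT synovium mean without TMM scaling went from 38.5 to 37.0 CPM. The ACLT 12 cartilage library held 54.1 CPM, close to the mean of 53.9 CPM of the other ACLT cartilage libraries.

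Whether the treatments differed among themselves in synovium was tested, since that contrast did not enter the choice of the transcript. The operated synovium libraries themselves did enter that choice. REPAIR synovium lay below RECON synovium by a log2 fold change of -0.38 (SE 0.15), or 0.768-fold (95% interval 0.626 to 0.942). All 12 REPAIR libraries were below the RECON median of 38.6 CPM, and REPAIR was the higher in 17.4% of the library pairs. The difference did not pass the threshold over all transcripts, with p = 0.0130 and an adjusted p of 0.242 from edgeR, where 0.267% of transcripts did pass. A permutation test of this transcript alone, added after the data were seen, gave p = 0.00749 and an adjusted p = 0.0674 over the 9 contrasts examined. With RNA integrity as a covariate the log2 fold change was -0.32 and edgeR's adjusted p was 0.544.

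RECON exceeded ACLT in synovium by 0.22 on the log2 scale (SE 0.15), 1.16-fold with an interval of 0.945 to 1.44, and edgeR's adjusted p was 0.863 (0.0514% of transcripts passed). REPAIR against ACLT came to -0.16 (SE 0.15), 0.894-fold with an interval of 0.726 to 1.10, at an adjusted p of 1 from edgeR (0.0122% passed). The order REPAIR, ACLT, RECON in synovium was therefore an order of means whose neighbours did not differ beyond their spread.

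**Figure D2:**
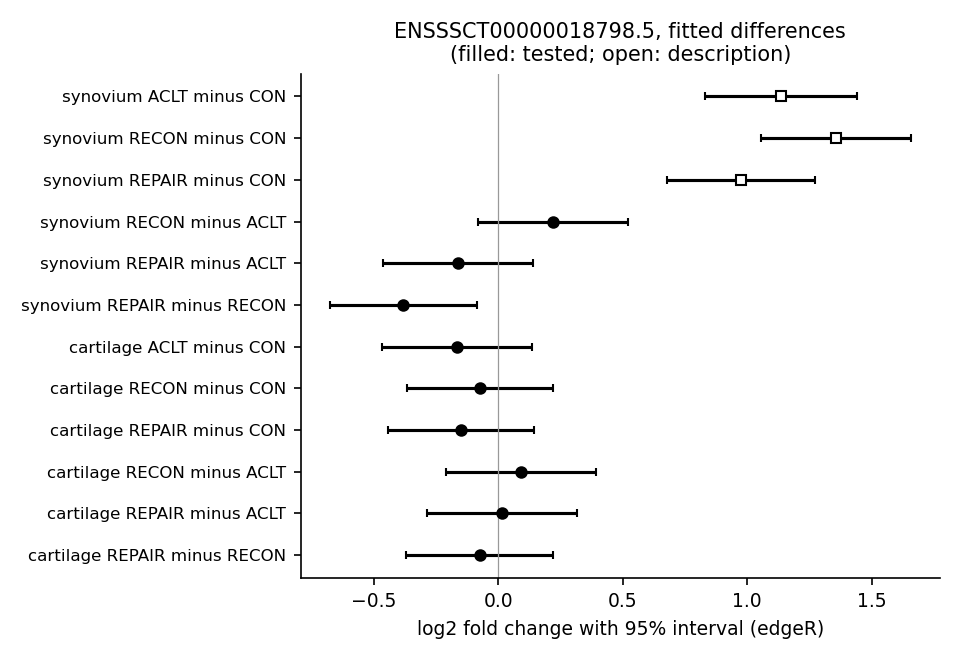
Fitted log2 fold changes of ENSSSCT00000018798.5 with 95% intervals, for 12 contrasts. Filled circles are tested contrasts and open squares are the synovium contrasts with CON, given as descriptions. The open squares lie between 0.98 and 1.36, whereas 8 of the 9 tested contrasts have intervals that cross 0, the exception being REPAIR minus RECON in synovium at -0.38.

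Cartilage answers whether the transcript also changed there after surgery, and its libraries played no part in the choice. In CON cartilage the level ran from 45.9 to 122 CPM, with a median of 68.0 CPM, and CON 5 at 122 CPM stood above every other library. ACLT cartilage ran from 49.7 to 86.9 CPM with a median of 58.8 CPM. RECON cartilage ran from 41.9 to 87.2 CPM, with a median of 64.5 CPM, and REPAIR cartilage from 43.1 to 76.7 CPM, with a median of 62.8 CPM. No operated library exceeded the highest CON library in any of the 3 groups, and each range lay largely inside the CON range.

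No cartilage contrast with CON passed the threshold. By edgeR, ACLT differed from CON by -0.16 on the log2 scale (SE 0.15, adjusted p = 0.937), a fold of 0.892 with a 95% interval of 0.724 to 1.10, where 0.259% of transcripts passed. RECON differed by -0.07 (SE 0.15, adjusted p = 0.997), a fold of 0.9499 with an interval of 0.775 to 1.16, where 0.629% passed. REPAIR differed by -0.15 (SE 0.15, adjusted p = 0.914), a fold of 0.902 with an interval of 0.736 to 1.11, where 0.308% passed. For the mean of the treatments the value was -0.13 (SE 0.12, adjusted p = 0.879), a fold of 0.914 with an interval of 0.775 to 1.08, where 2.05% passed. Decreases as large as the lower ends of these intervals lie within the error of these data, and the upper ends lie below the fold changes fitted in synovium. The negative values rested largely on CON 5. In a limma fit on log2 CPM, ACLT, RECON, REPAIR and the mean of the treatments differed from CON by -0.14, -0.05, -0.12 and -0.10 with all knees, and by -0.06, 0.03, -0.04 and -0.02 without CON 5.

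Between treatments, cartilage differed by at most 0.09 on the log2 scale in either direction, with an adjusted p of 1 from edgeR in each of the 3 contrasts. RECON against ACLT was 0.09, REPAIR against ACLT was 0.02 and REPAIR against RECON was -0.07. The shares of transcripts that passed were 0.0489%, 0.0391% and 0.0196%. Their 95% intervals ran from 0.865-fold to 1.31-fold, from 0.821-fold to 1.25-fold and from 0.775-fold to 1.16-fold, in that order.

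Each knee gave both tissues, so the gap between cartilage and synovium could be read knee by knee. Cartilage held more of the transcript than synovium in 47 of 47 knees, which was true of 4.35% of transcripts. That count is for TMM-scaled CPM. Without TMM scaling, synovium was the higher tissue in knees ACLT 7, RECON 5, RECON 6 and RECON 11, with 48.2 against 37.2 CPM in RECON 11. In TPM, synovium was the higher in RECON 11, at 31.9 against 30.55 TPM. The ratios that follow are TMM-scaled. In CON knees the cartilage level was a median of 5.31 times the synovium level (range 2.41 to 6.49). In operated knees the median ratio was 1.88 in ACLT (1.33 to 3.31), 1.69 in RECON (1.03 to 2.46) and 1.94 in REPAIR (1.58 to 3.72). At the low end, knee RECON 11 had 41.9 CPM in cartilage and 40.6 CPM in synovium. The range of the ratio in CON knees overlapped with that of each operated group.

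**Figure D3:**
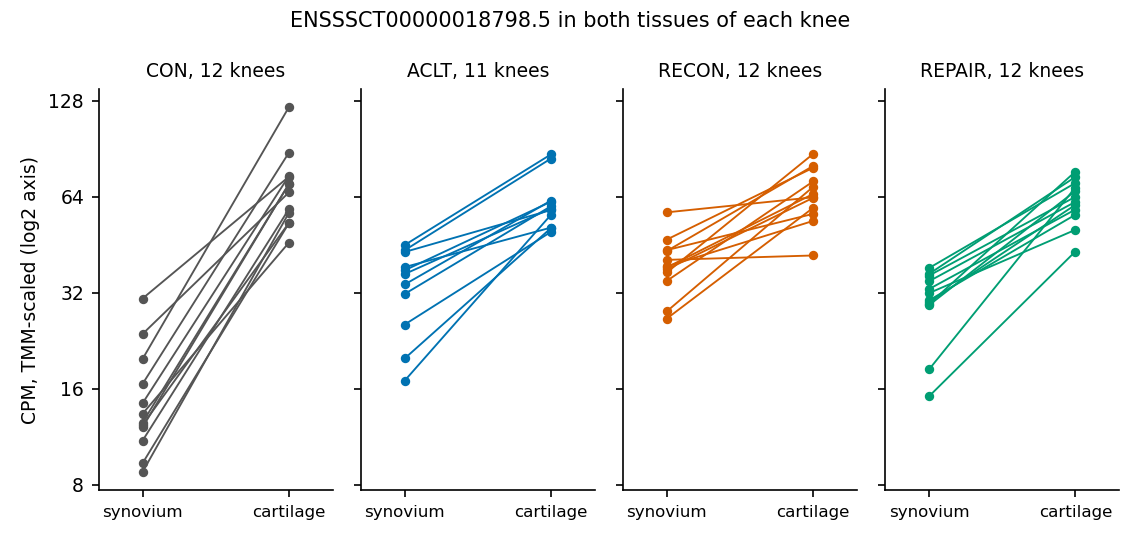
Level of ENSSSCT00000018798.5 in synovium and cartilage of each knee, in TMM-scaled CPM on a log2 axis, with 1 line per knee and 1 panel per treatment. On this scale every line rises towards cartilage. The median ratio is highest in CON knees, at 5.31 against 1.69 to 1.94 in the operated groups, but the ranges overlap.

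As groups, all cartilage libraries lay above all synovium libraries in CON, ACLT and REPAIR knees, which 4.71%, 4.26% and 4.59% of transcripts showed. In RECON knees, where 3.89% of transcripts showed it, 4 of 12 synovium libraries were above the lowest cartilage library. The separation in ACLT and REPAIR knees depended on the scale. Without TMM scaling, their lowest cartilage libraries, at 44.5 and 39.5 CPM, lay below their highest synovium libraries, at 48.9 and 42.4 CPM. In TPM the tissues overlapped in REPAIR knees (27.3 against 28.5 TPM) but not in ACLT knees. The fitted difference between cartilage and synovium was 2.17 on the log2 scale in CON, 0.87 in ACLT, 0.74 in RECON and 1.05 in REPAIR knees. The interaction, which is the change from CON in cartilage minus the change from CON in synovium, was -1.30 for ACLT (SE 0.22), -1.43 for RECON (SE 0.21) and -1.12 for REPAIR (SE 0.21). With the knee as a replicate block it was -1.32, -1.48 and -1.15, each with an SE of 0.17.

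Knees that were high for their treatment group in synovium tended to be high in cartilage too. Over 47 knees, the deviations of log2 CPM from the group means correlated between the tissues with Pearson's r of 0.440 (permutation p = 0.00369, adjusted p = 0.0184 over 5 relations). Spearman's rho was 0.429 (permutation p = 0.00355, adjusted p = 0.0177). The permutations moved each knee as an independent unit, although 12 animals gave 2 knees each, so these p-values may be too small. Without the 2 knees farthest from the median in cartilage, r was 0.455. Within groups r was 0.590 in ACLT (n = 11), 0.528 in CON (n = 12) and 0.485 in REPAIR (n = 12), but 0.0254 in RECON (n = 12). The same correlation, computed on log2(CPM + 1), had a median of 0.0900 over 24853 transcripts averaging 1 CPM or more, with 5th and 95th percentiles of -0.193 and 0.402, and 96.5% of them were below this transcript. Cartilage RNA integrity showed no relation past the threshold with the cartilage level (r = 0.187, permutation p = 0.223, adjusted p = 0.316, and rho = 0.175, permutation p = 0.254, adjusted p = 0.424).

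**Figure D4:**
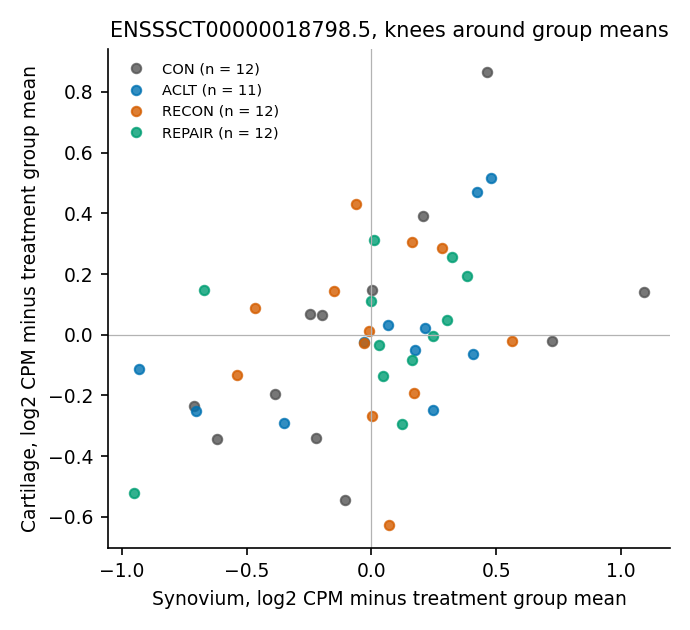
Deviation of each knee from its treatment group mean of log2 CPM, synovium on the horizontal and cartilage on the vertical axis, for ENSSSCT00000018798.5. Each point is 1 of 47 knees, coloured by treatment. The points rise together with r = 0.440 over all knees, while the RECON points alone show r = 0.0254.

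Because CON knees were the opposite knees of operated animals, 12 animals gave an operated and an unoperated knee. In synovium the operated knee was higher in 11 of 12 animals, with a median ratio of 2.58 (range 0.953 to 4.56). It was higher in 4 of 4 ACLT, 4 of 4 RECON and 3 of 4 REPAIR animals. The exception was the animal of REPAIR 1, with 29.2 CPM in the operated knee and 30.7 CPM in its CON knee, CON 11. In the animal of REPAIR 11 the operated knee held 34.8 CPM and the CON knee, CON 10, held 8.77 CPM, the lowest of all libraries. Both low REPAIR libraries belonged to animals whose CON knees were below the CON median, with 18.4 against 9.34 CPM for REPAIR 5 and 15.1 against 12.1 CPM for REPAIR 7. The mean difference over the 12 animals was 1.26 ± 0.69 on the log2 scale (SD), and a fit with the animal as a replicate block gave 1.27 (SE 0.19). The transcript was chosen on synovium values, so these counts and differences are descriptions. No share of all transcripts is given beside them.

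In cartilage the operated knee was higher in 4 of 12 animals, and the mean difference was -0.12 ± 0.31 on the log2 scale (two-sided exact sign-flip permutation test, p = 0.218). The ratio of operated to CON cartilage ran from 0.614 to 1.29 with a median of 0.924. The animal with the CON 5 knee, at 122 CPM, held 79.9 CPM in its operated RECON 7 knee.

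**Figure D5:**
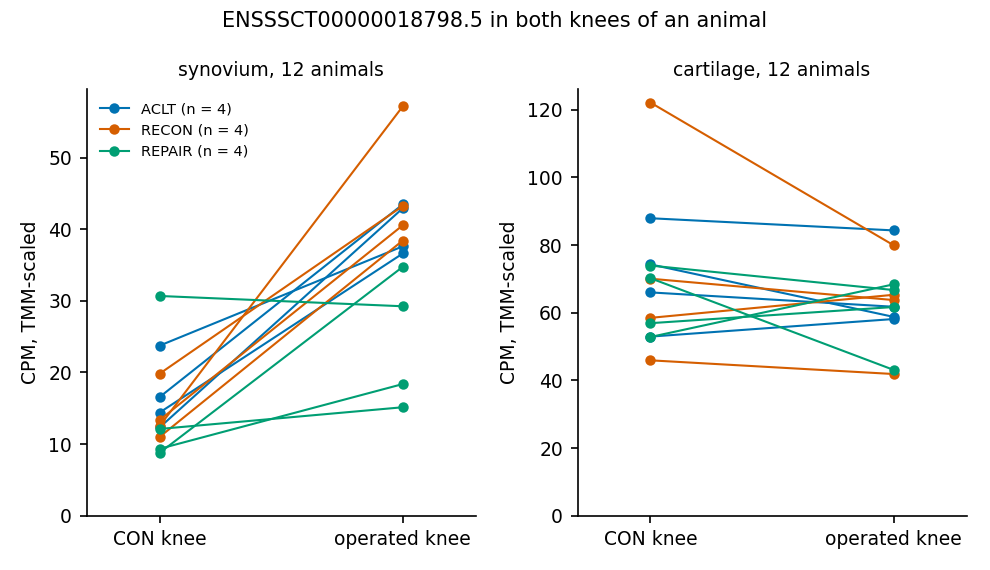
Level of ENSSSCT00000018798.5 in the CON knee and the operated knee of 12 animals, in TMM-scaled CPM, for synovium and cartilage. Each line is 1 animal, coloured by the treatment of its operated knee. Synovium lines rise in 11 animals and fall slightly in 1 REPAIR animal from 30.7 to 29.2 CPM, and cartilage lines rise in 4.

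Relations between the knees of an animal did not pass the threshold. In cartilage, deviations of CON and operated knees from their group means correlated with r of 0.580 over 12 animals (permutation p = 0.0490, adjusted p = 0.122) and rho of 0.455 (permutation p = 0.141, adjusted p = 0.353). For operated knees the group mean was that of the treatment's knees among these animals, and permutations ran over all 12 animals together. Without the 2 animals farthest from the median r was 0.156, so the relation rested on those animals. In CPM without TMM scaling it was r = 0.729 (adjusted p = 0.0206 from permutation). In synovium r was 0.127 (permutation p = 0.692, adjusted p = 0.692) and rho 0.224 (permutation p = 0.485, adjusted p = 0.485). Without the 2 farthest animals the synovium r was -0.0993.

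Other transcripts were ranked by how closely their deviations from the group means followed this one over the 47 synovium libraries, among the 24625 that averaged 1 CPM or more. These correlations share the libraries, their depth and their scaling, and are descriptions. Their median was -0.0233, with 5th and 95th percentiles of -0.419 and 0.424, and 22 transcripts were above 0.7. The most alike was ENSSSCT00000011352.5, with r = 0.818 in synovium and 0.509 in cartilage. Its level in synovium was 112.7 ± 128.5 CPM in CON, 278 ± 167 in ACLT, 377 ± 192 in RECON and 275 ± 152 in REPAIR, and in cartilage it was 1045 ± 304 CPM in CON and 829 to 912 CPM on average in the operated groups. The next was ENSSSCT00000094160.1, with r = 0.811 in synovium and 0.478 in cartilage. It held 28.6 ± 35.4 CPM in CON, 65.6 ± 36.9 in ACLT, 95.8 ± 48.6 in RECON and 75.1 ± 44.6 in REPAIR synovium, and 262 ± 76.4 CPM in CON cartilage. Both were thus higher in cartilage than in synovium and had the same order of CON below operated means in synovium.

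At the other end stood ENSSSCT00000041977.3, with r = -0.720 in synovium and -0.201 in cartilage. It was higher in synovium than in cartilage, at 31.7 ± 7.08 CPM in CON synovium and 18.5 ± 4.14, 15.5 ± 3.62 and 20.5 ± 4.66 CPM in ACLT, RECON and REPAIR synovium, against 7.02 to 7.58 CPM on average in cartilage. The next was ENSSSCT00000052079.3, with r = -0.703 in synovium and -0.211 in cartilage, which held 6.54 ± 2.38 CPM in CON synovium and 2.51 ± 1.27, 1.87 ± 0.55 and 2.76 ± 0.76 CPM in ACLT, RECON and REPAIR synovium. It averaged 4.29 to 5.09 CPM in the cartilage groups, below the synovium mean in CON knees and above it in the operated groups.

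The summed level of a list of transcripts predominant in cartilage is given beside the level in synovium. The list of 405 transcripts was drawn, after the data were seen, from CON libraries, each member averaging 10 CPM or more in cartilage and 10 or more times its synovium average. ENSSSCT00000018798.5 and the 2 transcripts most like it did not meet this rule. Those 2 fell just short of 10 times, at 1045 against 112.7 CPM and 262 against 28.6 CPM in CON cartilage and synovium. Since the rule asked for a low level in CON synovium, it favours a low sum in those libraries, and the sum was not tested between groups. The summed level of the list in CON synovium was 4365 CPM on average (range 2661 to 7509), against 8264 CPM in ACLT (5005 to 13712), 9543 CPM in RECON (4899 to 14789) and 7790 CPM in REPAIR synovium (4401 to 12300). Around the group means this sum followed the transcript over the 47 synovium libraries with r = 0.670 and rho = 0.648. The synovium sums were 1.10%, 2.12%, 2.46% and 1.71% of the sums in CON, ACLT, RECON and REPAIR cartilage. The same percentages of the transcript's own cartilage level were 0.76, 1.31, 1.62 and 1.07 CPM, in that order. The rule that drew the list also favours low percentages, and so low values here. The transcript's synovium levels were 15.4, 33.8, 39.4 and 30.3 CPM. The part of cartilage RNA in the synovium level of the transcript was not tested.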

How the data were processed

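RNA from articular cartilage and synovium was prepared with a kit that removes ribosomal RNA and was sequenced in one pool as paired reads. The authors quantified transcripts with Salmon 1.8.0 against Sscrofa11.1 and deposited, per library, estimated counts without normalization, TPM values, lengths and effective lengths. The authors' estimated counts were rounded to whole numbers for the fits, and levels in CPM used them unrounded. The TPM values deposited by the authors served as a second scale.

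Groups came from the sample labels. Same-numbered cartilage and synovium libraries came from the same knee according to the study's sample list, which also names each animal. Over 47 knees, the mean correlation of their deviations around group means was 0.0418 (-0.0123 to 0.112), against -0.00124 between animals.

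Tests used R 4.3.3 with edgeR 4.0.16 (TMM, glmQLFit, glmQLFTest, 8 groups of tissue and treatment without covariates) on 40873 transcripts that had counts above 0 in 2 or more of the 94 libraries, with Benjamini-Hochberg adjustment over all of them and a threshold of 0.05. Intervals span 1.96 standard errors. The authors used DESeq2 with RUVSeq factors, which were not applied here. The authors also removed outlier samples seen in principal components, a step that was not repeated here. Alternatives were DESeq2 1.42.0 and its size factors, filterByExpr with a minimum count of 10, no filter, 1 tissue at a time, RNA integrity as a covariate, replicate blocks, ACLT 12 included, and each knee left out in a limma 3.58.1 fit. Relations used 100000 permutations. They were computed from deviations of log2 CPM and permuted within groups. The exceptions are the relations between the knees of an animal, which were permuted over all 12 animals together. The edgeR procedure was also run on counts simulated for the cartilage libraries alone, for the mean of the treatments against CON. The fit of both tissues was not simulated, and the outcome is not given here. The transcript, its comparisons and the rule for the named transcripts (the 2 most and 2 least alike in synovium) were chosen with earlier results of these data known. The 12 animals with 2 knees enter the fit and the permutations across knees as independent knees. The exceptions are the block by animal and the comparisons within animals.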

Additional observations from a re-analysis of the deposited data

How the results depend on the processing

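The differences from CON in synovium kept their direction under every alternative fitted, at 1.07 to 1.14 on the log2 scale for ACLT, 1.28 to 1.36 for RECON and 0.96 to 0.98 for REPAIR, and at 1.10 to 1.26, 1.35 to 1.52 and 0.96 to 1.12 when each knee was left out in turn. None of the 10 tested contrasts passed the threshold under any alternative run. REPAIR against RECON in synovium stayed between -0.40 and -0.32 (adjusted p from 0.0674 in the permutation test to 0.566), and between -0.45 and -0.31 without single knees (adjusted p from 0.349 to 0.782). Without CON 5 alone, the cartilage contrasts of ACLT, REPAIR and the mean of the treatments with CON came to -0.06, -0.04 and -0.02. 2 cartilage contrasts close to 0 changed sign. RECON against CON ran from -0.100 to 0.0280 without single knees, and REPAIR against ACLT ran from -0.00601 to 0.0745 without single knees and was -0.00997 with ACLT 12 included. The animal as a replicate block gave -0.13 for operated against CON cartilage and did not change that call (adjusted p = 0.882 from edgeR), and the knee as a replicate block was fitted only for differences given without a test.

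Without TMM scaling, REPAIR cartilage held 50.0 CPM in place of 62.5 CPM. The relation between CON and operated cartilage of an animal then had r = 0.729 and passed the threshold, with an adjusted p of 0.0206 from permutation, or 0.0244 with ACLT 12 included. The cause was not tested. The relation between the tissues of a knee stayed past the threshold, with r of 0.377 to 0.399. The number of REPAIR synovium libraries above the highest CON library was 6 with TMM, 8 and 9 in CPM without TMM and in TPM, and 10 without CON 11. The likeness of the 4 named transcripts ran from -0.69 to 0.77 without TMM, where ENSSSCT00000052079.3 was 15th from the lower end with r = -0.635. Depth limits little here, since the lowest estimated count was 127, but how Salmon divided reads among related transcripts was not measured.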
